A study of Mus musculus with 4 samples.

Results

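The entries described here are microRNA genes of 4 mouse families, mir-297, mir-466, mir-467 and mir-669, most lying as repeated copies inside the gene Sfmbt2. They were taken by name from the authors' deposited table of a CRISPR-Cas9 knockout screen, as every entry whose name starts with one of these 4 family numbers. The rule found 53 of 22510 entries in the authors' deposited table, and these 53 hold 139 of its 121918 guides. The mir-297 family has 5 entries, mir-466 has 18, mir-467 has 10 and mir-669 has 20.

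The screen used mouse embryonic stem cells of the established line E14, with the genotype MERVL-tdTomato and no treatment, cultured with leukemia inhibitory factor. MERVL is an endogenous retrovirus of the 2-cell embryo, and its tdTomato reporter marks the rare cultured cells that enter a similar state. All cells received a lentiviral library of 130209 guides against 20611 genes in the lentiCRISPRv2 backbone, puromycin selection followed, and the day 5 sort took about 500000 cells with the reporter on, or 3.84 cells per library guide. Of the 4 libraries, 2 hold the sorted MERVL-positive cells and 2 the total cells. Both libraries of a group are labelled as repeats of sequencing, with no word on separate cultures. The authors' deposited table gives 1 comparison between these groups per entry and no value per library. The depth of each library is therefore unknown, and no entry has a spread between libraries.

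A microRNA is cut from a hairpin in a longer transcript by Drosha with Dgcr8, exported, cut again by Dicer1 and loaded into an Argonaute protein. Bases 2 to 8 of the mature strand, the seed, pair with target mRNAs, so copies with the same seed can act on the same targets. The Sfmbt2 cluster is a rodent-specific array in an intron of Sfmbt2, which encodes a Polycomb group protein and is imprinted. It is known for its expression in placenta and in mouse embryonic stem cells. A Cas9 guide cuts wherever its target sequence recurs next to a matching PAM, the short motif Cas9 requires. A guide against a repeated microRNA can therefore cut several copies, and where it does, the value of 1 entry cannot be assigned to 1 copy.

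Mature sequences were found in RefSeq, build GRCm38.p6, for 7 of the 53 entries, which are the 7 that lie outside Sfmbt2 by the positions given further on. They are shown 5′ to 3′ with the seed in capitals, to show the simple repeats in them.
mir-466i-3p: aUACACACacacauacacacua
mir-466k: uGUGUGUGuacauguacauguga
mir-466q: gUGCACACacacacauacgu
mir-467f: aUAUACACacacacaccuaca
mir-467g: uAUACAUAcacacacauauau
mir-467h: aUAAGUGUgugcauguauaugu
mir-669n: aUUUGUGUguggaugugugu
These 7 had 7 distinct seeds, so none of them shared a seed with another. The seed of mir-467h also occurred in 1 other mature microRNA of the RefSeq table, miR-668-5p. Mature sequences were matched for none of the 45 entries inside Sfmbt2, so seeds shared with those entries could not be seen. In 6 of the 7 the longest run of an alternating pair of bases, such as ACACAC, was 8 bases or more. A run of that length was found in 1.15% of all 1738 mature sequences of the table, whose median longest run was 4 bases. The longest runs, of 12 bases, were in mir-466q and mir-467f.

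RefSeq hairpins were matched for 3 entries and are shown with the mature strand in capitals, to set the possible Cas9 sites in them beside the number of guides. Mir466k lies at chr3:85467377-85467498, Mir467h at chr9:115381819-115381939 and Mir669n at chr3:115979902-115979955, all on the plus strand of GRCm38.p6.
Mir466k: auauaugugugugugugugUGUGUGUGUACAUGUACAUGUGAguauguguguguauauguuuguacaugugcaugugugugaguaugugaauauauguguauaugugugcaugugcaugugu
Mir467h: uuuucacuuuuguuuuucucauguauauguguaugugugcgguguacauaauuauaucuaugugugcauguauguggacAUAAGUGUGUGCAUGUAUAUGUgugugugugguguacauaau
Mir669n: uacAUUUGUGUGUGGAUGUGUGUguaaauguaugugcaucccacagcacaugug
Sites of 20 bases followed by NGG, the PAM of the usual Cas9, were counted on both strands within each hairpin. Mir467h had 3 such sites, and Mir466k and Mir669n had none, against a median of 6 distinct sites over the 1005 hairpins of the table. The 3 sites of Mir467h were in no other hairpin of the table. Hairpins were matched for none of the 45 entries inside Sfmbt2, so whether those entries share the sites was not analysed. Per the authors' deposited table, mir-467h has 3 guides, mir-466k has 2 and mir-669n has 4. No guide against mir-466k or mir-669n can therefore have both its 20 bases and its NGG inside the RefSeq hairpin. The guide sequences and the flanking genome were not used here, so how many copies each guide cuts was not analysed.

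The position of the entries was checked against RefSeq, whose build has the coordinates of mm10, the build named in the submitters' processing notes. By name, 52 of the 53 entries matched a RefSeq gene, and mir-466a did not. Of the matched entries, 45 lie inside Sfmbt2, which spans chr2:10370440-10595253. The other 7 lie elsewhere, so the name of the cluster does not hold for them. They are mir-466k, mir-466q and mir-669n on chromosome 3, mir-467g on chromosome 5, mir-467h on chromosome 9, mir-467f on chromosome 11 and mir-466i on chromosome 13.

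Inside Sfmbt2, RefSeq places 71 genes with the symbols of these families between 10466663 and 10518279, a stretch of 51.6 kb. Its middle is an array that starts with Mir467a-2 and ends with Mir467d, from 10478798 to 10507714. There the mir-467 copies recur at a regular distance, with 9 of 11 start-to-start intervals between 2413 and 2470 bases. Of the 33 family genes annotated in this array, 11 were matched to an entry in the table. Before the array 19 of 21 were matched, and after it 15 of 17 were. The remaining family genes were not analysed here.

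Guides per entry were few. Of the 53 entries, 18 (34.0%) have 4 guides per the authors' deposited table, against 896 of the 1079 other microRNA entries (83.0%). Single guides stand for 12 of the 53 (22.6%) and for 8 of the 1079 (0.741%) in the same table. The mean was 2.62 guides per entry in these families and 3.79 in the other microRNAs. Within the families it was highest in mir-669, at 3.15, where 12 of 20 entries have 4 guides per the authors' deposited table. It was lowest in mir-466, at 2.22, where 2 of 18 have 4. Along Sfmbt2, the mean was 3 guides before the array, 1.91 in it and 2.80 after it.

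Values are given as the authors' log2 fold change between the groups, and a positive value is read as more guides in MERVL-positive cells. The authors' deposited table does not state the numerator. The reading is likely, because the study's title ties loss of the Integrator subunit Ints7 to active MERVL and Ints7 ranks 157 for positive and 18586 for negative change per the authors' deposited table. If the numerator were total cells, all signs below would turn. Enrichment p and depletion p are the authors' p-values for positive and negative change. Guides up and guides down are those past the authors' guide threshold in each direction, which is loose, with 37.4% of all guides up and 37.9% down.

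Over the 53 entries the median log2 fold change was 0.10, against 0.014 for the other microRNAs, -0.018 for all entries and 0.019 for the 998 non-targeting control guides. Of the 53, 29 had a value above 0 and 24 below. The mean, at -0.16, had the other sign, with mir-669a-12 at the bottom at -4.25 per the authors' deposited table. The middle of the distribution ran from -0.61 at the lower quartile to 0.31 at the upper, and for the other microRNAs from -0.38 to 0.38. Of the 139 guides, 46.8% were up (exact 95% interval 38.3 to 55.4), against 37.4% of all guides and 39.3% of those of the other microRNAs. Guides down made 38.8% (30.7 to 47.5), against 37.9% and 36.4%. Both intervals cover counting only and are too narrow where guides share target sites. That of the share up holds the 39.3% of the other microRNAs. The median and the guides up thus lay above those of all entries, and the mean lay below.

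No entry of the 53 passed a false discovery rate (FDR) of 0.05 in either direction per the authors' deposited table, where 0% of all entries passed for enrichment and 0.00444%, or 1 entry, for depletion. The lowest FDR of the 53 was 0.962 for enrichment and 0.846 for depletion. At an unadjusted p under 0.05, 4 of the 53 (7.55%) were called for enrichment per the authors' deposited table, where 4.95% of all entries were called. For depletion 4 of the 53 (7.55%) were called per the authors' deposited table, where 5.08% of all entries were called. Of these 8 entries, 7 have 4 guides, and all 8 lie inside Sfmbt2, as do 45 of all 53. Over all 53, the gap to the background share comes to fewer than 2 entries in each direction. Among the 18 entries with 4 guides, a subset set apart after the values were seen, 4 (22.2%) were called for enrichment and 3 (16.7%) for depletion per the authors' deposited table. Of all 1360 entries with 4 guides in that table, 5.07% and 5.15% were called.

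The 4 entries called for enrichment were mir-669e, mir-669d-2, mir-467a-1 and mir-669f, all before the array. Per the authors' deposited table, mir-669e stood at 0.69 on the log2 scale, or a ratio of 1.61, with 4 of 4 guides up, an enrichment p of 0.0126 and an FDR of 0.962. mir-669f had the highest value of all 53 entries, 1.33 or a ratio of 2.52, again with 4 of 4 guides up (enrichment p = 0.0258, FDR 0.985 per the authors' deposited table). These are neighbours, with 145 bases between Mir669f, which ends at 10467349, and Mir669e, which starts at 10467495. The next entry downstream, mir-669b, had a value of 0.88 with 2 of 2 guides up per the authors' deposited table. The entry before them, mir-466m, 482 bases from Mir669f, had a value of 0.28 with 1 guide up and 1 down per the authors' deposited table. Of the 12 guides against these 4 neighbours, 11 were up.

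For mir-669d-2 the log2 fold change was 1.06, with 3 guides up and 1 down and an enrichment p of 0.0183, per the authors' deposited table. mir-467a-1 had 4 of 4 guides up and an enrichment p of 0.021 at a log2 fold change of only 0.22 per the authors' deposited table. A low p here therefore did not need a large fold change. All 4 guides were up in 3 of the 18 entries with 4 guides (16.7%) and in 2.68% of the 896 other microRNAs with 4. All 4 were down in 1 of the 18 (5.56%) and in 2.57% of the others. These entries are mir-669e, mir-669f and mir-467a-1 for up and mir-466d for down, all called at a p under 0.05. The shares are thus no evidence apart from the calls, and the subset was set apart after the values were seen.

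The 4 entries called for depletion were mir-669a-3, mir-466d, mir-669a-12 and mir-467e. Per the authors' deposited table, mir-669a-3 had the lowest depletion p of the 53, 0.00543, with a log2 fold change of -0.61, 3 guides down, 1 up and an FDR of 0.846. mir-466d stood at -1.16 on the log2 scale, or a ratio of 0.449, with 4 of 4 guides down (depletion p = 0.00752, FDR 0.846 per the authors' deposited table). It was the only entry of the 53 with 4 guides that were all down. mir-467e had a value of -0.80, with 3 guides down and 1 up and a depletion p of 0.023, per the authors' deposited table.

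The lowest value of the 53 was that of mir-669a-12, -4.25 or a ratio of 0.0524 from 1 guide, with a depletion p of 0.0142 and an FDR of 0.896 per the authors' deposited table. It is the lowest value but 1 among all 22510 entries. Of the 998 non-targeting control guides, 1 was as low. Next came mir-466q, also with 1 guide, at -2.54 with a depletion p of 0.0772 per the authors' deposited table, and 9 of the 998 control guides were as low. The middle 95% of control guides ran from -1.65 to 1.34, and 10 of the 12 entries with 1 guide lay inside that range. The standard deviation over these 12 entries was 1.51, against 0.770 over the control guides. Without mir-669a-12 and mir-466q, left out for their values, it was 0.642 over the other 10, and over the 8 other microRNAs with 1 guide it was 0.642. Without a spread between libraries, a single guide offers no check of either value.

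The standard deviation of the log2 fold change over entries was 0.65 with 2 guides, 0.56 with 3 and 0.66 with 4. Other microRNAs with the same number of guides had 0.65, 0.76 and 0.59, so these families were lower with 3 guides only. Among the 41 entries with at least 2 guides, all guides were up in 7 and all down in 4. In 22 of the 41 (53.7%), guides up and guides down occurred in the same entry. Other microRNAs, weighted to the same numbers of guides per entry, had 52.1% of such entries, a share near that of these families.

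By family, mir-669 had values on both sides, with 11 of 20 entries above 0 and a median of 0.13. Its 63 guides were 54.0% up (exact 95% interval 40.9 to 66.6) and 38.1% down (26.1 to 51.2). The interval of the share up lies above the 37.4% up over all guides, and that of the share down holds the 37.9% down. The share up takes in the guides of mir-669e, mir-669f and mir-669d-2, called above, so it is no separate evidence. Intervals of guide shares cover counting only, and they are too narrow where guides share target sites. Beside the entries called above, mir-669m-1 and mir-669m-2 had values of 0.57 and 0.44, mir-669o 0.35, mir-669g 0.22, mir-669a-1 0.15, mir-669i 0.13 and mir-669k 0.12 per the authors' deposited table. On the other side mir-669l had -0.68, mir-669d -0.53, mir-669c -0.51, mir-669j -0.50, mir-669n -0.50 and mir-669h -0.30 per the authors' deposited table, and mir-669a-2 was at -6.1e-05. The entries mir-669h, mir-669i and mir-669k each had 2 guides up and 2 down.

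The mir-466 family had the lowest median of the 4, -0.33, with 10 of 18 entries below 0. Its 40 guides were 52.5% down (exact 95% interval 36.1 to 68.5) and 30.0% up (16.6 to 46.5), and both intervals hold the shares over all guides. After mir-466q, its lowest values were mir-466p at -1.34, mir-466f-3 at -1.23, mir-466d at -1.16, mir-466l at -1.11 and mir-466k at -1.0 per the authors' deposited table. Of these 5, mir-466d alone had a depletion p under 0.05 per the authors' deposited table, and mir-466p had a p of 0.326 from 2 guides, 1 of them down. Then came mir-466b-3 at -0.92, mir-466f-2 at -0.69 and mir-466b-5 at -0.65 per the authors' deposited table. The entry mir-466o was at -0.0089 there. Above 0 were mir-466a at 0.46, mir-466g at 0.43, mir-466m at 0.28, mir-466i at 0.27, mir-466h at 0.20, mir-466b-1 at 0.19, mir-466c-2 at 0.071 and mir-466c-1 at 0.019 per the authors' deposited table. None of these 8 had an enrichment p under 0.05.

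In the mir-467 family 7 of 10 entries were above 0, with a median of 0.26. Its 24 guides were 58.3% up (exact 95% interval 36.6 to 77.9) and 20.8% down (7.13 to 42.2), and both intervals hold the shares over all guides. The highest values were mir-467g at 1.04 from 1 guide and mir-467h at 0.89 with 3 of 3 guides up per the authors' deposited table, and both entries lie outside Sfmbt2. Of the rest, mir-467a-2 had 0.37, mir-467d 0.31, mir-467c 0.30 and mir-467b 0.10 per the authors' deposited table. Below 0, beside mir-467e, were mir-467f at -0.21 and mir-467a-3 at -0.056 there. Whether the families differ was not tested, since entries that may share targets are not replicates.

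The mir-297 family had 3 of 5 entries above 0. Its highest value was mir-297c at 0.68, with 3 of 3 guides up and an enrichment p of 0.0685, per the authors' deposited table. mir-297a-2 and mir-297a-4 followed at 0.13 and 0.12, mir-297b was at -0.067, and mir-297a-3 was at -0.79 from 1 guide per the authors' deposited table.

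Copies that carry the same family number and letter often had unlike values. The 4 entries of mir-669a ranged over 4.40 log2 units, from mir-669a-12 at -4.25 to mir-669a-1 at 0.15 per the authors' deposited table. Both ends of that range rest on 1 guide each. Both entries of mir-669d lay on opposite sides of 0, 1.58 log2 units apart, with 2 of 2 guides of mir-669d down and 3 of 4 guides of mir-669d-2 up per the authors' deposited table. The 3 entries of mir-466b ranged over 1.11 log2 units, those of mir-297a over 0.93 and those of mir-467a over 0.43. The low end of mir-297a and both ends of mir-467a also rest on 1 guide each. Closer were mir-466f, whose entries were both below 0 and 0.54 apart, mir-669m, both above 0 and 0.12 apart, and mir-466c, 0.052 apart and near 0. Of these 8 sets, 3 thus had all entries on 1 side of 0. Whether entries of unlike names would differ less, or more, was not tested. How far a name marks identical target sites was not analysed here.

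Along Sfmbt2, neighbouring entries with the same sign came in short runs. Of the 44 pairs of successive entries, 25 had the same sign and 19 opposite signs, and of the 24 pairs less than 500 bases apart, 16 had the same sign. The 45 entries formed 20 runs of 1 sign, and the longest runs, 2 of them, held 5 entries. The first of these lies in the array, from mir-466b-5 to mir-466p at chr2:10488887-10506094, and holds mir-669a-12 and mir-467e. Its entries had values from -4.25 to -0.65 per the authors' deposited table, with 8 of 11 guides down and 1 up. The -4.25 rests on 1 guide. In this run 14590 bases, the widest gap of the 44 pairs, separate mir-466b-5 from the next entry, mir-466b-3. The second run lies after the array, from mir-669m-1 to mir-466h at chr2:10512790-10514971. Its values ran from 0.20 to 0.57, with 9 of 13 guides up and 1 down per the authors' deposited table. Between these runs sit first mir-467d and mir-297c, both above 0. The 1 guide of mir-467d and the 3 guides of mir-297c were all up. Then come 4 entries below 0, with 7 of 12 guides down and 2 up. The last of them is mir-466d, whose 4 guides were all down, 727 bases before Mir669m-1. The runs were chosen after the values were seen, and whether they are longer than a mixed order would give was not tested.

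By stretch of Sfmbt2, the median log2 fold change was 0.15 over the 19 entries before the array, -0.056 over the 11 in it and 0.12 over the 15 after it. Guides up made 56.1% of the 57 guides before the array (exact 95% interval 42.4 to 69.3), 23.8% of the 21 in it (8.22 to 47.2) and 47.6% of the 42 after it (32.0 to 63.6). The first of these intervals lies above the 37.4% up over all guides, and the others hold it. The stretch before the array holds every entry called for enrichment, so its interval is no separate evidence. All 3 intervals cover counting only and are too narrow where guides share target sites. The stretches were also set after the values were seen, and whether they differ was not tested. The stretch with the fewest guides per entry was thus also the one with the lowest median, and the part of guide number in that was not tested. The 7 entries outside Sfmbt2 ranged from -2.54 to 1.04 with a median of -0.21.

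The host gene Sfmbt2 stood at 0.77 on the log2 scale, with 3 of 5 guides up and 1 down and an enrichment p of 0.188 (FDR 0.996), per the authors' deposited table. It did not pass the threshold in either direction, with a depletion p of 0.381 in that table.

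Genes that make or use all microRNAs were read beside them, from a list of 14. None had a p under 0.05 in either direction per the authors' deposited table, where 4.95% and 5.08% of all entries did, and 7 values were above 0 and 7 below, with a median of 0.050. Dgcr8, which recognises the hairpin for Drosha, had the lowest value, -1.53, with 4 of 6 guides down, none up and a depletion p of 0.0847, per the authors' deposited table. The nuclease Drosha itself had 0.21, with 3 guides up and 2 down there. The exporter Xpo5 had 0.45, with 5 of 6 guides up, none down and an enrichment p of 0.0774, per the authors' deposited table. Its export partner, the GTPase Ran, was at -0.14, and Dicer1, which cuts the exported hairpin, at 0.26 per the authors' deposited table.

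The Dicer1 partners Tarbp2 and Prkra were at 0.40 and -0.38 per the authors' deposited table. Among the Argonaute genes, whose proteins hold the mature strand, Ago3 was at 0.28, Ago2 at 0.24, Ago4 at -0.11 and Ago1 at -0.31 per the authors' deposited table. The silencing cofactors of the Argonautes were at 0.81 for Tnrc6b, -0.24 for Tnrc6a and -0.68 for Tnrc6c per the authors' deposited table. The sort gave 3.84 cells per library guide. These genes and the repeated microRNAs may have effects that could not be called, which was not tested.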

How the data were processed

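Guides were counted by sequencing in 4 libraries. MAGeCK and the build mm10 are named in the submitters' processing notes. For version, settings and normalization nothing was given in the sources used here. All values came from 1 table of the authors' own comparison, with no counts per library. Per the file headers, it holds per entry the number of guides, a score, a p-value and false discovery rate per direction, ranks, guides past a threshold and a fold change. The score, which the headers do not define, was not used for any result. The fold change is taken as log2, as MAGeCK writes it, and the authors deposited the same values in both of its columns. The other numbers per entry (guides, guides up, guides down) are not read counts, and ranks were taken as scores as deposited by the authors.

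Members were found by name, and the count of calls at p under 0.05, medians and guide shares were computed with Python 3.11.15, pandas 2.3.3 and scipy 1.17.1. Share intervals are exact binomial (Clopper-Pearson), 95%. p-values and false discovery rates are those of the authors' deposited table, adjusted over all entries, and no model was fitted. They may rest on technical spread alone, since the labels name no separate cultures. By the naming rule any member could be named, with full values for those at an unadjusted p under 0.05 and the extremes. Members, lists and settings were chosen with earlier results of these data known, and the division into stretches, copies and runs after the values were seen. Positions and sequences came from RefSeq tables of GRCm38.p6. The functions for names, seeds, sites and repeat runs were tested on made-up cases. Alternatives were other p thresholds, entries with at least 2 guides, entries inside Sfmbt2, means for medians, and other centrings.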

Additional observations from a re-analysis of the deposited data

How the results depend on the processing

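Of 18 alternatives, 11 left the value within the range set for no change. At a p under 0.01 the calls were 0 for enrichment and 2 for depletion, because the threshold is stricter, and the share of all entries called was 1.05% and 1.14%. At a p under 0.1 the calls were 5 of the 53 (9.43%) for enrichment and 6 (11.3%) for depletion. Of all entries, 9.95% and 10.1% were called at that threshold. The median log2 fold change of 0.10 turned to -0.16 as a mean and to -0.067 as a mean weighted by guides per entry. It was 0.071 over entries with at least 2 guides, 0.082 after subtracting the median of the control guides and 0.088 after subtracting that of the other microRNAs. Its sign thus depends on how the entries are averaged, and no direction was called from it. The calls at other settings, and the shares of guides up and down, stayed within the range set for no change with entries of at least 2 guides and with entries inside Sfmbt2, where depletion calls were 3 and 4. No paired analysis was possible because the table holds no value per library, and leaving out a repeat could not be run for the same reason. Depth per library is unknown, and how far the 3.84 sorted cells per guide limited what could be detected was not tested.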
